A study of Mus musculus with 18 samples.

Results

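Interferon regulatory factors (IRFs) are transcription factors that bind interferon-response sequences in DNA. Some are switched on by pattern-recognition receptors and drive interferon and cytokine genes, and others carry the answer to interferon or set which kind of dendritic cell (DC) forms. The members followed here were chosen by name: Irf1, Irf2, Irf3, Irf4, Irf5, Irf7, Irf8 and Irf9. A gene of the deposited table was taken when its symbol is one of these names, which gave 8 of the 62197 genes in the table. All 8 are among the 17875 genes that were tested, meaning genes that reach 10 normalized counts or more in 3 or more of the libraries.

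The study asked how DCs grown from mouse bone marrow respond to being squeezed, and whether the lipase gene Pla2g4a is needed for it. Cells came from young adult wild-type (WT) mice or from mice whose floxed Pla2g4a is deleted by Cre under the Itgax (CD11c) promoter (KO), and grew for 10 days with supernatant of J558 cells that contains GM-CSF. Bulk RNA was sequenced from 18 libraries, 3 for each of 6 conditions, with strand-specific, polyA-selected kits; 2 kits are named without saying which library used which. Nonconfined DCs of each genotype were taken directly at the end of the culture. Confined DCs of each genotype were held under a ceiling of 3 µm and collected 4 h after confinement. LPS-treated DCs of each genotype received 100 ng/ml lipopolysaccharide for 30 min by the sample labels (the study's methods give a slightly shorter time), were washed and were left until the next day; the protocol text mentions LPS for all samples, but titles and treatment fields name it only for these groups.

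Reads assigned to genes ran from 33027230 to 61300021 per library, with a median of 40950397. Group medians were 39851237 in nonconfined WT, 37116045 in nonconfined KO, 42049558 in confined WT and 33672070 in confined KO. LPS libraries labelled WT were the deepest, at a median of 52482280 against 43169041 for those labelled KO. Values below are normalized counts, that is reads divided by the size factor of the library, a number that sets the libraries to a common scale. Each comparison was tested with limma, a linear model fitted to log2 values after adding 1, with 1 mean per condition and 1 spread estimated from all libraries. A gene is called when its p-value, adjusted over all tested genes by the Benjamini-Hochberg method, is below 0.05. A second, stricter rule also asks for an absolute log2 fold change above 1. The study calls its replicates biological and, in a general statement, independent, but nothing says for these libraries whether the 3 of a condition are separate mice or separate cultures, so the p-values measure only the spread between these libraries, which may be technical. In bulk RNA, fewer cells of a kind and less RNA in each cell cannot be told apart. Nonconfined, confined and LPS-treated DCs were also collected at different times and handled differently. In comparisons between them, effects of treatment cannot be told apart from those of time and handling.

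Pla2g4a itself was measured first, to check the genotype labels. It was at 697, 686 and 770.43 normalized counts in nonconfined WT and at 548, 542 and 533 in nonconfined KO, a log2 fold change of -0.41 (limma, adjusted p 0.00019) with all 3 KO libraries below all 3 WT libraries. In confined DCs it was at 1369, 1430.3 and 1321 in WT and at 923, 871 and 919.5 in KO (log2 fold change -0.60, limma, adjusted p 3.81e-08). Transcript remains in the KO libraries, and the count is of the whole gene. In libraries labelled LPS WT it was at 1005, 969 and 967, and in those labelled LPS KO at 1065, 1032 and 1028, so the libraries labelled KO were the higher ones (0.09, limma, adjusted p 1).

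The Y-linked gene Ddx3y was at 3.05, 0 and 1.97 in nonconfined WT and at 0, 1.72 and 2.37 in confined WT. In nonconfined KO it was at 949, 981 and 874, and in confined KO at 1036, 920.25 and 948. Xist, made by cells with 2 X chromosomes, was at 27953, 33681 and 30681 in nonconfined WT and at 22734, 33482 and 29759 in confined WT. It was also present in KO, at 12153, 19081 and 14328 in nonconfined and 16980, 24835 and 20600 in confined libraries, so the KO libraries hold both Xist and Y-linked transcripts. Presence of Y-linked transcripts runs with genotype in these 4 conditions, and effects of sex and of genotype cannot be told apart there. The LPS libraries break this pattern. Those labelled WT had Ddx3y at 1271, 0 and 662 and those labelled KO at 2.12, 1476 and 783, and Eif2s3y was at 799, 1.83 and 448 and at 2.12, 863 and 505. LPS WT replicates 1 and 3 and LPS KO replicate 1 thus go against the Y-linked pattern of their label. Replicates 3 of both labels lie between the other 2 for both genes, and which genotype each LPS library has was not settled by these values. LPS results are given for the libraries as labelled, for both labels together, without these 3 libraries (LPS KO replicate 3, with its intermediate values, stays in), and without the 2 LPS libraries that lack Y-linked transcripts (WT replicate 2 and KO replicate 1).

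Markers were read to check the DC label. Itgax, Cd74, H2-Aa, H2-Ab1, H2-Eb1, Flt3, Zbtb46 and Dpp4 were present in every group, with Cd74 the most abundant of them. Their sum was 491587, 466709 and 471152 in nonconfined WT. There Cd74 averaged 240560, H2-Ab1 83965, H2-Aa 79603 and H2-Eb1 64792, against 6281 for Itgax, 738 for Zbtb46, 425 for Dpp4 and 119 for Flt3. The sum thus reads mostly Cd74 and the H2 genes and says little of the others. Marker genes of other cells are also detected and move with genotype and confinement, although the culture protocol takes the loosely attached cells so as to leave floating granulocytes and firmly attached macrophages behind. Their values are given with the gene lists below.

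Per kilobase of transcript, Irf5 led in all 4 conditions without LPS. In nonconfined WT the order was Irf5 (6753 normalized counts per kb of the canonical transcript), Irf7 (1528), Irf1 (927), Irf9 (876), Irf4 (768), Irf3 (762.5), Irf8 (517) and Irf2 (449.5). Replicates of Irf1 and Irf9, and those of Irf4 and Irf3, overlap. The nonconfined KO order put Irf3 (868) above Irf4 (606.5), and there Irf9 (922) overlaps Irf3 and Irf8 (490.4) overlaps Irf2 (462). Confined WT libraries kept Irf5 (8321), Irf7 (3799) and Irf1 (1947) at the top, while Irf8 (693.5) overlapped Irf3 (676). Confined KO libraries had Irf5 at 7928 and every other member far below, with Irf7 (732) overlapping Irf3 (725), Irf3 overlapping Irf1 (673) and Irf4 (473) overlapping Irf9 (469.6). In the LPS libraries Irf7 stood first, at 12190 for those labelled WT and 12120 for those labelled KO, above Irf5 (9972 and 10070). Irf2 was last in both LPS groups, at 619 and 617.

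**Figure D1:**
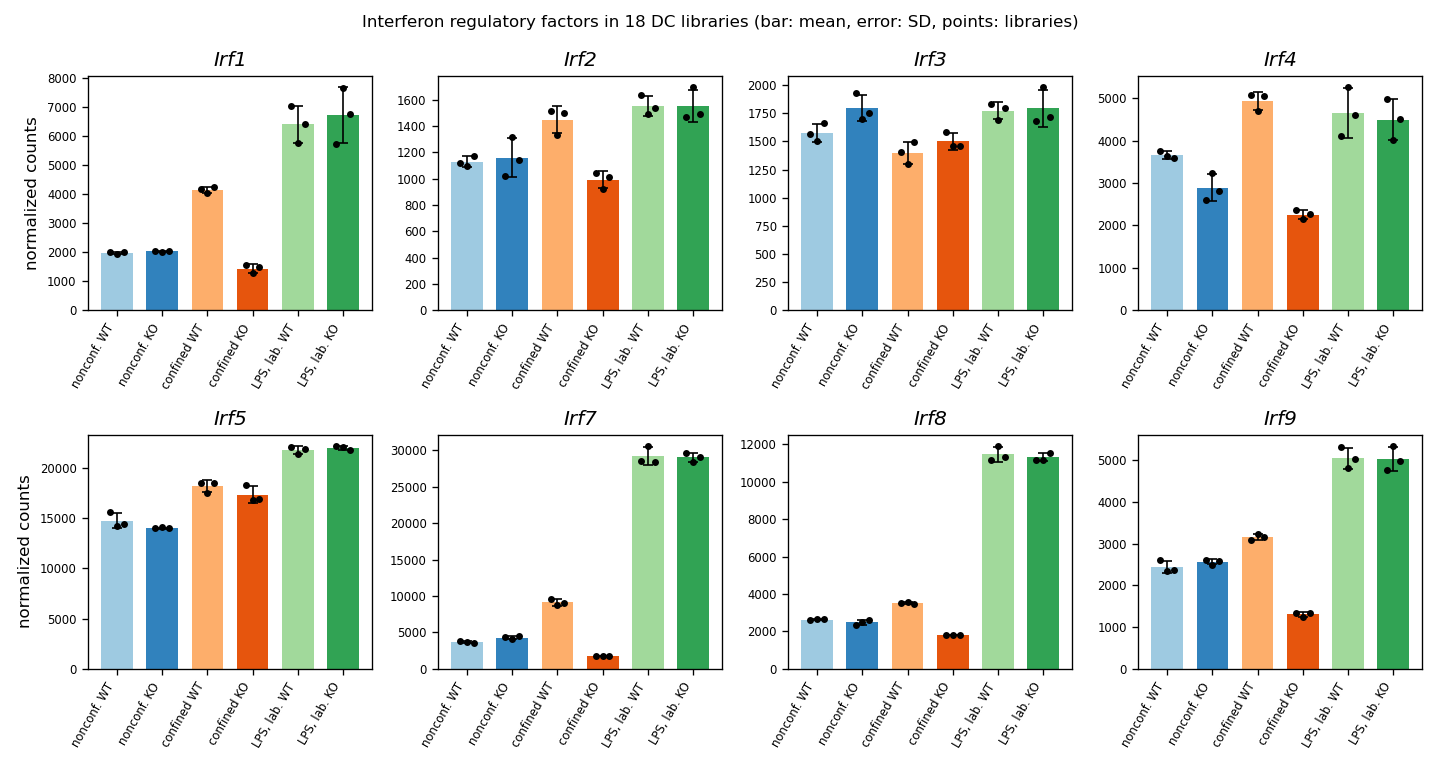
Normalized counts of the 8 IRF genes in the 6 conditions, 1 panel per gene with its own linear axis from 0. Bars are means of 3 libraries, error bars are SD and points are single libraries.

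Irf7 (GSMG0052735, chr7:140842619-140846337, minus strand, 10 exons, 2397 transcript bases) is the member that amplifies type I interferon, being itself made in response to interferon. It was at 3798, 3627 and 3565 in nonconfined WT and at 9564, 8741 and 9009 in confined WT. Every confined WT library is above every nonconfined one. The rise was 2.48-fold (log2 fold change 1.31, 95% confidence interval 1.22 to 1.41, limma, adjusted p 7.58e-16). In KO the same gene went the other way. Nonconfined KO libraries were at 4342, 4056 and 4463 and confined KO libraries at 1719, 1745 and 1803, with no overlap. That is a log2 fold change of -1.29 (-1.38 to -1.19, limma, adjusted p 5.11e-15). The interaction, which is the confinement change in KO minus that in WT, was -2.60 for Irf7 (-2.74 to -2.46, limma, adjusted p 9.14e-18). It was the largest among the members, and between confined groups Irf7 was 5.18-fold lower in KO (log2 fold change -2.37, limma, adjusted p 3.36e-20).

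Irf3 (GSMG0048303, chr7:44647072-44652271, plus strand, 8 exons, 2070 transcript bases) sits in resting cells and is switched on by phosphorylation when nucleic acids or LPS are sensed, so its transcript need not move for it to act. Its libraries were at 1564, 1506 and 1666 in nonconfined WT and at 1411, 1296 and 1494 in confined WT. The groups come close without overlapping. Confinement lowered it slightly in WT (-0.17, -0.32 to -0.03, limma, adjusted p 0.0422). That call was lost with no gene filter (adjusted p 0.0688), under TMM scaling (0.0904), in edgeR (0.0915) and without nonconfined WT replicate 1 (-0.18, 0.0723) or 3 (-0.13, 0.168) or confined WT replicate 1 (-0.18, 0.0689) or 2 (-0.12, 0.207). Its adjusted p over all alternatives ran from 1.73e-05 to 0.207, the lowest with every library scaled to the same total (log2 fold change -0.40). In KO, Irf3 was at 1928, 1703 and 1758 before and at 1584, 1458 and 1459.91 after confinement. The groups are apart and the change was -0.26 (limma, adjusted p 0.0051). Its interaction was not past the threshold, at -0.08 (limma, adjusted p 0.601), and takes the other sign, 0.10, under same-total scaling. Between confined groups it was at 0.10 in KO against WT (limma, adjusted p 0.285), past the threshold only under same-total scaling (0.26, adjusted p 0.00252, with alternatives from 0.00252 to 0.691).

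Irf5 (GSMG0043976, chr6:29526624-29541870, plus strand, 9 exons, 2189 transcript bases) works downstream of MYD88-dependent receptors on cytokine genes. It was at 15681, 14193.5 and 14474 in nonconfined WT and at 18557, 17557 and 18527 in confined WT. No library crosses between these groups. Irf5 rose by 0.30 on the log2 scale (limma, adjusted p 3.58e-06), but by 0.08 under same-total scaling (adjusted p 0.0886, alternatives from 1.04e-11 to 0.0886). Among KO libraries it was at 13998.5, 14095 and 14010.1 before and at 18325, 16844 and 16896.5 after confinement. This is the only member that rose with confinement in KO (0.31, limma, adjusted p 5.53e-06), and its KO groups do not overlap. Its interaction was 0.00 (-0.12 to 0.13, limma, adjusted p 0.979); the value is -0.03 under TMM scaling and in edgeR, -0.01 in DESeq2, and 0.19 with a same-total adjusted p of 0.00832, the alternatives running from 0.00832 to 1. KO against WT in confined DCs gave -0.07 for Irf5 (limma, adjusted p 0.216) and 0.08 under same-total scaling.

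Irf9 (GSMG0015981, chr14:55841442-55847487, plus strand, 9 exons, 2784 transcript bases) is the DNA-binding part of ISGF3, the complex that answers type I interferon. Nonconfined WT libraries were at 2604, 2339 and 2369 and confined WT libraries at 3079.61, 3230.21 and 3148. The groups are apart, and Irf9 rose by 0.37 (limma, adjusted p 6.55e-06), or by 0.15 under same-total scaling (adjusted p 0.0146, alternatives from 4.35e-10 to 0.0146). Nonconfined KO libraries were at 2613, 2494 and 2594 and confined KO libraries at 1340.16, 1237 and 1345. All 3 confined KO libraries are far below the nonconfined ones. The KO change was -0.97 (-1.09 to -0.86, limma, adjusted p 7.13e-12), and the interaction -1.35 (-1.51 to -1.18, limma, adjusted p 1.18e-11). In confined DCs Irf9 was lower in KO than in WT (log2 fold change -1.27, limma, adjusted p 4.24e-14).

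Irf1 (GSMG0007378, chr11:53660841-53669200, plus strand, 10 exons, 2136 transcript bases) is induced by interferon-gamma and by NF-kappaB and activates antigen-processing genes. It was at 2001, 1932 and 2009 in nonconfined WT and at 4193, 4039.69 and 4242 in confined WT. The replicates lie close together and the groups far apart. Confinement raised Irf1 2.1-fold in WT (1.07, 0.89 to 1.25, limma, adjusted p 5.25e-10). KO libraries were at 2043, 2025 and 2028 before and at 1556, 1279 and 1475 after confinement. Again the groups are apart, here with the confined ones lower (-0.50, limma, adjusted p 4.56e-05). Irf1 had an interaction of -1.57 (-1.82 to -1.33, limma, adjusted p 9.41e-10) and was lower in confined KO than confined WT (-1.54, limma, adjusted p 2.19e-12).

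Irf2 (GSMG0053318, chr8:47192767-47300501, plus strand, 9 exons, 2512 transcript bases) binds the sites that IRF1 binds and mostly damps them. Its values were 1119, 1095 and 1173 in nonconfined WT and 1511, 1329.99 and 1501 in confined WT. The WT groups do not overlap, and Irf2 rose by 0.36 (limma, adjusted p 0.000892), with 0.13 under same-total scaling (adjusted p 0.162, alternatives from 6.84e-05 to 0.162). In KO it was at 1022.5, 1318 and 1138 before and at 1043, 922 and 1009.72 after confinement. These groups overlap. The KO change was -0.22 (limma, adjusted p 0.0346) and was not called with no gene filter (0.0574), with these conditions compared alone (0.0846), or without nonconfined KO replicate 2 (-0.12, 0.227) or 3 (-0.23, 0.0622) or confined KO replicate 2 (-0.17, 0.152) or 3 (-0.23, 0.0561), the alternatives running from 0.00569 to 0.227. The interaction of Irf2 was -0.58 (limma, adjusted p 0.000746), and in confined DCs KO was at -0.54 against WT (limma, adjusted p 1.66e-05). The ratio of Irf1 to Irf2 counts, which sets an activator beside its competitor, was 1.75 on average in nonconfined WT, 2.88 in confined WT, 1.77 in nonconfined KO and 1.45 in confined KO.

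Irf4 (GSMG0013163, chr13:30933216-30950964, plus strand, 9 exons, 4764 transcript bases) shapes the DC subset that presents antigen to helper T cells and moves to lymph nodes. Nonconfined WT libraries were at 3754, 3631 and 3589.75 and confined WT libraries at 5065, 4697 and 5051. Those groups do not meet, and the rise was 0.43 (limma, adjusted p 0.000185), or 0.21 under same-total scaling (adjusted p 0.0583, alternatives from 3.02e-06 to 0.0583). Among KO libraries Irf4 was at 2603, 3243 and 2822 before and at 2364, 2140.14 and 2262 after confinement. The spread is wider in nonconfined KO, but all 3 confined libraries are lower (-0.35, limma, adjusted p 0.00189). Irf4 showed an interaction of -0.78 (limma, adjusted p 3.54e-05). It was lower in KO than in WT after confinement (-1.13, limma, adjusted p 5.33e-10).

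Irf8 (GSMG0054284, chr8:121463095-121483429, plus strand, 9 exons, 5073 transcript bases) directs the cross-presenting DC subset and works with PU.1 and BATF3. It was at 2585, 2642 and 2640.48 in nonconfined WT and at 3524, 3573 and 3456 in confined WT. Replicates hardly differ, and the rise was 0.42 (limma, adjusted p 4.28e-08), or 0.20 under same-total scaling (adjusted p 0.00108, alternatives from 8.97e-20 to 0.00108). KO libraries were at 2332, 2512 and 2618 before and at 1816, 1790.38 and 1803 after confinement, again without overlap. Irf8 therefore fell in KO (-0.46, limma, adjusted p 2.38e-08), with an interaction of -0.89 (limma, adjusted p 2.91e-10) and a confined KO level at -0.96 against confined WT (limma, adjusted p 9.77e-14). The ratio of Irf8 to Irf4 stayed between 0.714 and 0.866 in the means of the 4 conditions without LPS.

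Counted over the members, confinement of WT DCs raised 7 of 8, where 28.2% of all tested genes rose. It lowered 1 of 8 (Irf3), where 28.4% of all tested genes fell. With the stricter fold rule 2 members rose, Irf1 and Irf7, against 11.4% of all tested genes; under same-total scaling Irf1 is at 0.84 and only Irf7, at 1.09, passes it. Under same-total scaling 5 members are called in place of 8, because Irf2, Irf4 and Irf5 no longer pass; Irf3 is lower and the other 4 higher, where 10960 of the 17875 tested genes are called, 3578 higher and 7382 lower. In KO DCs 1 of 8 rose (Irf5; 22.8% of all tested genes) and 7 of 8 fell (23.4%). Only Irf7 fell past the fold rule there (5.53%), joined by Irf9 at -1.01 under same-total scaling. The interaction was lower for 6 of 8 members (15.6% of all tested genes) and higher for 0 (10.2%). Past the fold rule it was lower for Irf1, Irf7 and Irf9 (6.56%). Member medians were 0.40 for confinement in WT, -0.41 in KO and -0.84 for the interaction, beside medians over all tested genes of -0.01, 0.01 and 0.05. These comparisons share nonconfined and confined libraries, so the values stand side by side and are not separate evidence.

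**Figure D2:**
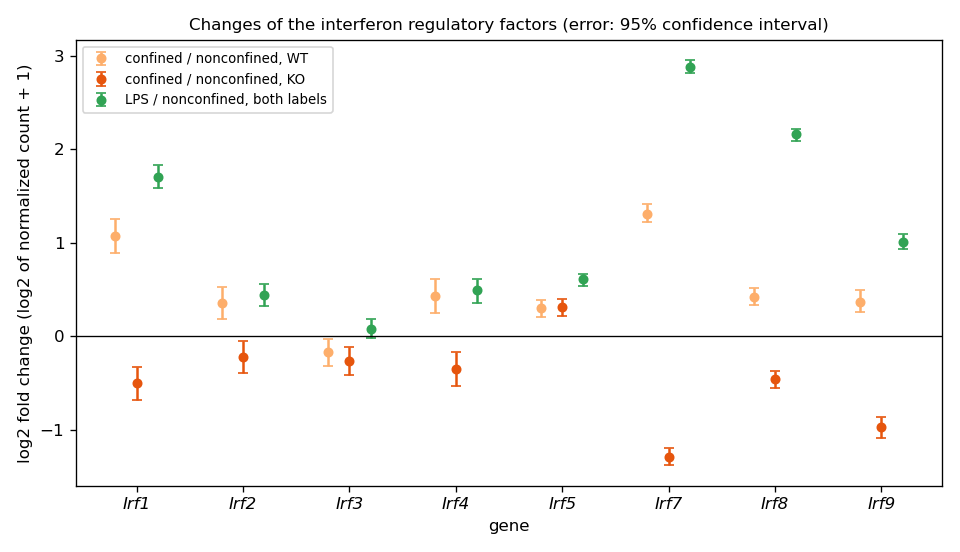
Log2 fold change of each IRF gene with confinement in WT and in KO DCs and with LPS in libraries of both labels together, each against nonconfined DCs. Error bars are 95% confidence intervals; under same-total scaling the LPS values of Irf2, Irf3 and Irf4 take the other sign.

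After confinement, 6 of 8 members were lower in KO than in WT (20.6% of all tested genes) and 0 were higher (18.8%). By the fold rule 4 were lower, Irf1, Irf4, Irf7 and Irf9 (7.31%), with Irf4 at -0.98 and so short of the rule under same-total scaling. The member median was -1.05 and that of all tested genes 0.04. Before confinement the genotypes differ much less. There 1 of 8 members was higher in KO, Irf7, where 4.78% of all tested genes were higher. Irf7 was above WT in all 3 nonconfined KO libraries (0.23, 0.13 to 0.32, limma, adjusted p 0.00409). Another 1 of 8, Irf4, was lower (4.11% of all tested genes), with no overlap between groups (-0.35, -0.52 to -0.17, limma, adjusted p 0.0146). That Irf4 call was lost without nonconfined WT replicate 1 (-0.33, adjusted p 0.0578) or nonconfined KO replicate 1 (-0.27, 0.104) or 3 (-0.33, 0.0599), the alternatives running from 0.0029 to 0.104. The other 6 were not past the threshold: Irf1 0.04, Irf2 0.03, Irf3 0.19, Irf5 -0.07, Irf8 -0.08 and Irf9 0.08, with Irf2 at 0 under same-total scaling.

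LPS is the classic trigger of IRF activity in DCs: TLR4 signals through MYD88 to IRF5 and through TICAM1 to IRF3, and the interferon then made acts through ISGF3 on Irf7. With both labels together, 7 of 8 members rose against nonconfined DCs (37.2% of all tested genes) and 0 fell (34.3%). By the fold rule 4 rose, Irf1, Irf7, Irf8 and Irf9 (15.6%), but Irf9 is at 0.51 under same-total scaling and then does not pass that rule. Irf7 was at 28576, 30646 and 28467 in libraries labelled WT and at 29649, 28461 and 29071 in those labelled KO. All 6 lie far above all 6 nonconfined libraries, a 7.36-fold rise (2.88, 2.81 to 2.95, limma, adjusted p 5.57e-25). Without the 2 libraries lacking Y-linked transcripts the value is 2.85, and without the 3 that go against their label 2.91.

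Irf8 was at 11160.4, 11933 and 11312 in LPS libraries labelled WT and at 11191, 11181 and 11554 in those labelled KO. It rose 4.46-fold (2.16, limma, adjusted p 2.46e-23), or 2.15 and 2.19 on the log2 scale without the 2 and the 3 libraries. With Irf4 changing less, the ratio of Irf8 to Irf4 went to a mean of 2.48 in LPS libraries labelled WT and 2.53 in those labelled KO. Irf1 was at 7044, 5768 and 6407 under the WT label and at 5747, 7678 and 6752 under the KO label. The spread is wide, and the lowest value under each label is the library without Y-linked transcripts. All 6 libraries are above the nonconfined ones, and Irf1 rose by 1.70 (limma, adjusted p 1.37e-16; 1.79 without the 2 libraries, 1.68 without the 3). Irf9 was at 5313, 4811 and 5016 and at 4769, 5348 and 4982. It rose 2.01-fold (1.01, limma, adjusted p 8.77e-16; 1.05 without the 2 libraries and 1.00 without the 3).

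Irf5 was at 22136, 21388 and 21964 in LPS libraries labelled WT and at 22171, 22156 and 21798 in those labelled KO, and rose by 0.61 (limma, adjusted p 7.63e-14; 0.61 without the 2 libraries, 0.59 without the 3). Under same-total scaling its rise was 0.11. Irf4 was at 4099, 5259 and 4597 and at 4973, 4015 and 4498. Replicates differ widely but lie above the nonconfined ones (0.49, limma, adjusted p 2.58e-07; 0.40 without the 2 libraries, 0.54 without the 3), although same-total scaling turns the sign to -0.01. Irf2 was at 1639, 1490.14 and 1536 and at 1470.15, 1695 and 1488, a rise of 0.44 (limma, adjusted p 6.64e-07; 0.48 and 0.43 without the 2 and the 3 libraries) that becomes -0.05 under same-total scaling. Irf3 was at 1829, 1689.68 and 1801 and at 1678, 1983 and 1719, overlapping nonconfined DCs. Its pooled value was 0.08 (limma, adjusted p 0.15), called only without the 2 libraries (0.12, adjusted p 0.0457) and, with the other sign, under same-total scaling (-0.41, adjusted p 4.66e-08), the alternatives running from 4.66e-08 to 0.561. Without the 3 libraries Irf3 was at 0.07 (adjusted p 0.328).

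As labelled, LPS raised 8 of 8 members in libraries labelled WT (33.4% of all tested genes) and 7 of 8 in libraries labelled KO (33.4%). The difference is Irf3, at 0.17 under the WT label (limma, adjusted p 0.0447) and 0.00 under the KO label (limma, adjusted p 0.961). That WT-label call of Irf3 was lost with no filter (0.0737), in edgeR (0.14), in DESeq2 (0.0888), under TMM scaling (0.12, 0.143) and with a replicate block (0.17, 0.0519). It was also lost without nonconfined WT replicate 1 (0.16, 0.0963) or 2 (0.14, 0.157), LPS WT replicate 1 (0.15, 0.125) or 3 (0.16, 0.109), and without the 3 libraries (0.10). That last test has 1 library labelled WT left, and its spread is taken from the other groups. It was kept without the 2 libraries (0.20, 0.0235) and had the other sign under same-total scaling (-0.34, 7.05e-05), alternatives running from 7.05e-05 to 0.416. The other changes under the WT label were Irf1 1.69, Irf2 0.46, Irf4 0.34, Irf5 0.56, Irf7 3.00, Irf8 2.13 and Irf9 1.05, of which Irf2 becomes -0.05, Irf4 -0.17 and Irf5 0.05 under same-total scaling, none of them called (adjusted p 0.572, 0.0991 and 0.253), and Irf9 falls short of the fold rule at 0.54. Irf4 there was 0.25 without the 2 libraries and 0.52 without the 3. Under the KO label they were Irf1 1.72, Irf2 0.42, Irf4 0.64, Irf5 0.65, Irf7 2.76, Irf8 2.19 and Irf9 0.97, of which Irf2 becomes -0.06 under same-total scaling. That scaling also brings Irf9 to 0.49, Irf5 to 0.17, Irf4 to 0.16, no longer called (adjusted p 0.133), and Irf3 to -0.48, called as lower (adjusted p 1.02e-06). Over the alternatives the KO-label adjusted p ran from 5.47e-11 to 0.133 for Irf4 and from 1.02e-06 to 1 for Irf3.

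Between LPS libraries labelled KO and WT no member was called, 0 of 8 higher (0% of all tested genes) and 0 of 8 lower (0%). By limma 890 tested genes were below an unadjusted p of 0.05 and 0 passed after adjustment; edgeR called 0 and DESeq2 0. Member changes lay between -0.05 (Irf4) and 0.06 (Irf1), and the groups overlap for each member. Leaving out the 2 libraries without Y-linked transcripts gave 20 called genes, and leaving out the 3 that go against their label gave 546, with 0 members among them each time. In the latter Irf1 was at 0.32 (adjusted p 0.0628) and Irf4 at -0.31 (adjusted p 0.101), resting on 1 library labelled WT that was assumed to vary like the other groups; over alternatives the adjusted p of both ran up to 1. Whether the LPS response differs between genotypes was not tested.

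Confined WT DCs were compared with LPS-treated DCs of both labels, since both treatments raised most members. The confined DCs were collected 4 h after confinement and the LPS-treated ones the next day, so treatment, time and handling cannot be told apart. Here 6 of 8 members were lower in confined WT (29.8% of all tested genes), 2 of them past the fold rule (Irf7 and Irf8, 7.84%). Cell markers moved there too. All 8 DC markers (median log2 fold change -0.61) and all 7 neutrophil markers (-1.27) were lower in confined WT. Of 5 eosinophil markers (-2.28) and of 5 mast cell and basophil markers (-1.64), 4 were lower and 1 higher each. Of 7 macrophage markers 4 were lower and 2 higher (-0.28). The part of these markers in the member values was not tested. Irf8 was at -1.69 (limma, adjusted p 1.15e-18; -1.68 without the 2 libraries, -1.73 without the 3) and Irf7 at -1.68 (limma, adjusted p 2.49e-18; -1.65 and -1.71). Confined WT libraries lie below all 6 LPS libraries for both genes. Irf9 (-0.68), Irf1 (-0.65), Irf3 (-0.35) and Irf5 (-0.27) were lower as well, but under same-total scaling Irf9 is at -0.39, Irf1 at -0.36, Irf5 turns to 0.02 and Irf3 goes to -0.06 (adjusted p 0.362, alternatives from 6.58e-06 to 0.362). Irf2 did not pass (-0.10, limma, adjusted p 0.242), but under same-total scaling it was called as higher in confined WT (0.19, adjusted p 0.0245, alternatives from 0.0245 to 0.747). Irf4 was level with LPS (0.12, limma, adjusted p 0.196); it was called as higher in confined WT under same-total scaling (0.40, adjusted p 0.000187), TMM scaling (0.19, 0.0354), in edgeR (0.18, 0.0399) and without the 2 libraries (0.20, 0.0103), the alternatives running from 0.000187 to 0.472. Against LPS libraries labelled WT alone the values were Irf1 -0.62, Irf2 -0.10, Irf3 -0.34, Irf4 0.09, Irf5 -0.26, Irf7 -1.68, Irf8 -1.70 and Irf9 -0.68. Of these Irf2 and Irf4 are not called. Same-total scaling brings Irf1 there to -0.33, Irf9 to -0.39, Irf2 to 0.18, Irf5 to 0.03 and Irf3 to -0.05, the last 3 not called (Irf3 adjusted p 0.5, alternatives from 0.000169 to 0.5). Irf4 is called as higher in confined WT under that scaling (0.38, adjusted p 0.0015) and without the 2 libraries (0.18, 0.0481), and is at -0.09 without the 3, the alternatives running from 0.0015 to 0.97. The ratio of Irf7 to Irf3, the interferon-made member beside the constitutive one, was 2.33 in nonconfined WT and 6.52 in confined WT. It was 2.39 in nonconfined KO and 1.17 in confined KO. In LPS libraries labelled WT and KO it was 16.5 and 16.3.

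Scaling matters for these values, since the summed normalized counts differ between conditions: 34125100 on average in nonconfined WT, 39890269 in confined WT and 48718670 in LPS libraries labelled WT. As deposited, medians over all tested genes lie between -0.02 and 0.05 in every comparison. After scaling libraries to equal totals they stand at -0.23 for confinement in WT, -0.47, -0.44 and -0.46 for LPS under the WT label, the KO label and both together, 0.24 for the interaction, 0.19 for KO against WT in confined DCs and 0.27 for confined WT against LPS of both labels (0.26 for the WT label alone). This scaling moves all genes of a comparison nearly alike, so values taken relative to the shifted median come back by construction close to those above and are no check on scaling: confinement in WT gives Irf1 1.07 and Irf7 1.31, and LPS gives Irf7 2.84 and Irf8 2.12.

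IRF3, IRF5 and IRF7 proteins act after being switched on by phosphorylation, so transcript levels alone do not show their activity, and targets of the members are read here as lists of genes known from other work. Counts over lists, marker lists too, stand against shares of all tested genes, 28.2% up and 28.4% down for confinement in WT and 22.8% and 23.4% in KO. They are 10.2% and 15.6% for the interaction and 37.2% and 34.3% for LPS. KO against WT has 18.8% and 20.6% in confined and 4.78% and 4.11% in nonconfined DCs. For confined WT against LPS of both labels 29.8% are lower. Under same-total scaling, 4741 of the 17875 tested genes are higher and 1963 lower for the interaction. For LPS with both labels these numbers are 3643 and 10160. ISGF3 and IRF7 drive antiviral genes, here 17 with Isg15, Ifit, Mx and Oas genes among them. In confined WT all 17 rose (median log2 fold change 2.05, all tested genes -0.01), and in KO 15 fell and 2 did not pass (-1.36, all tested genes 0.01). Isg15 was at 2497, 2492.5 and 2380.1 in nonconfined WT, at 19019, 17447 and 18115 in confined WT and at 1059.6, 1098.3 and 1055.3 in confined KO. The interaction was lower for 17 of 17 (-3.14), as was KO against WT in confined DCs (-3.79), while in nonconfined DCs 2 were higher, 2 lower and 13 not past (-0.03). LPS raised 17 (3.45), also without the 2 or the 3 libraries, and confined WT was below LPS for 17 (-1.09). The lists share genes (Ifnb1, Ifit1, Ifit2, Ciita and Il12b are in more than 1, and the 4 cDC1 markers given later are all in the IRF8 list), and a list gene can answer to other factors too.

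IRF1 drives immunoproteasome, antigen-transport and guanylate-binding genes. The list of 15 read for it holds such genes together with Nlrc5, Ciita, Cd274, Il15, Il15ra, Casp1 and Nos2. With confinement in WT 11 rose and 4 fell (median 1.10), in KO 2 rose, 12 fell and 1 did not pass (-0.79), and the interaction was lower for 14 (-1.60). Gbp5 was at 1578.1, 1661.1 and 1681.4 in nonconfined WT, at 13206, 13086 and 13189 in confined WT and at 610.73, 492.65 and 561.36 in confined KO. Psmb8, Psmb9 and Psmb10, which are the immunoproteasome genes of the list, and Ciita are the 4 that fell in WT. KO was below WT after confinement for 14 of 15 (-1.86), and LPS raised 15 (2.23), or 13 under same-total scaling with 1 lower. IRF5 drives cytokine genes, a list of 5 (Il6, Il12a, Il12b, Il23a and Tnf): all 5 rose in confined WT (7.21), 3 rose and 2 did not pass in KO, and the interaction was lower for 5, as was KO against WT in confined DCs. LPS raised 5 of 5 (8.66). Il12a and Il23a are near 0 without stimulation, averaging 4.84 and 2.24 in nonconfined WT and 9.07 and 0.522 in nonconfined KO, so they pass the gene filter through the stimulated groups and their fold changes rest on a few reads. Of 5 early genes of IRF3, all rose in confined WT (3.58), 2 rose and 3 fell in KO (-1.03), the interaction was lower for 5 (-4.40) and LPS raised 5 (4.28). Ifnb1 is in this list and is 1 of the 2 that rose in KO. It averaged 4.69 in nonconfined WT and 1.91 in nonconfined KO. It thus passes the gene filter through the stimulated groups, and its fold changes rest on a few reads. Cxcl10 was at 429, 411.86 and 459.9 in nonconfined WT, at 44120, 42419 and 42869 in confined WT and at 864.3, 898.92 and 841.13 in confined KO.

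IRF4 supports genes of migratory DCs, a list of 6, and IRF8 those of cross-presenting DCs, a list of 7. Of the IRF4 list 4 rose and 2 fell in confined WT (0.34), 1 rose and 5 fell in KO (-0.95), and the interaction was lower for 3 with 3 not past (-0.34); LPS raised 5 and lowered 1 (1.76). Ccr7, which is in this list, was at 16165, 15734 and 15753 in nonconfined WT, at 33397, 32199 and 33237 in confined WT and at 8907.4, 8891.1 and 8957.2 in confined KO. Of the IRF8 list 2 rose, 3 fell and 2 did not pass in WT (-0.07), 1 rose, 3 fell and 3 did not pass in KO (-0.20), and the interaction was lower for 4 (-0.29); LPS raised 3 and lowered 2 (0.01). For confinement in WT the IRF8 counts lie near the shares of all tested genes. Of this list Xcr1 (averages of 3.44 in nonconfined and 25.5 in confined WT), Cadm1 (4.69 and 4.73) and Clec9a (16.2 and 16.0) are near the gene filter, so counts and medians of the list lean on few reads.

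Genes around the IRFs were read as well, with same-total counts to be set beside the same-total numbers given above. Of 11 that sense ligands and activate IRF3, IRF5 and IRF7, 6 rose and 4 fell in confined WT (0.20), 4 rose and 4 fell in KO (-0.08), the interaction was lower for 5 and higher for 1 (-0.16), 3 and 3 under same-total scaling, and LPS raised 6 and lowered 5 (0.70). Ikbke was at 2465.8, 2054.2 and 2229.7 in nonconfined WT and at 7520.7, 7502.3 and 7443.4 in confined WT. Of 8 DNA-binding partners and co-repressors, 3 rose and 5 fell in WT (-0.23), 1 rose and 5 fell in KO (-0.24), the interaction was lower for 4 and higher for 1 (-0.22), 3 higher under same-total scaling, and LPS raised 4 and lowered 3 (0.01), or 2 and 5 under same-total scaling. Of 6 interferon genes only Ifnb1 passed the filter. Ifnb1 was at 3.05, 5.12 and 5.90 in nonconfined WT and at 105, 92.6 and 103 in confined WT. In KO it was at 0, 1.86 and 3.88 before and at 11.9, 6.398 and 6.38 after confinement. That is a called rise (log2 fold change 1.88) that rests on a few reads. LPS libraries labelled WT had Ifnb1 at 167, 155 and 145.51. Ifna2, Ifna4, Ifng, Ifnl2 and Ifnl3 were at or near 0 throughout. No gene of these lists was called between the 2 labels under LPS.

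Marker genes of other cells move with the same comparisons, and their part in the member values was not tested. With LPS, both labels together, 5 of 5 eosinophil markers (-0.50) and 5 of 5 mast cell and basophil markers (-0.46) fell. Of 7 macrophage markers 5 fell and 1 rose (-0.39), and of 7 neutrophil markers 3 fell and 3 rose (-0.29). Of 8 DC markers 6 rose and 1 fell (0.27). The summed neutrophil markers (7 genes, S100a9 most abundant) were 224142, 229475 and 227673 in nonconfined WT, 351786, 315486 and 340119 in nonconfined KO, 143212, 136687 and 134313 in confined WT and 313524, 328089 and 312209 in confined KO. With confinement 7 of 7 fell in WT (-1.04) and 3 of 7 in KO (-0.44), 7 had a higher interaction (0.71) and 7 were higher in confined KO than confined WT (1.44). Eosinophil markers (5 genes, Prg2 most abundant) summed on average to 30879.5 and 72828 in nonconfined WT and KO, and to 8341 and 21599 after confinement, with 4 of 5 falling in WT (-2.13) and in KO (-1.86). Under LPS they were at 43838, 25501 and 35101 (label WT) and 25438, 43869 and 35699 (label KO), the lowest being the libraries without Y-linked transcripts. Mast cell and basophil markers (5 genes, Cpa3 most abundant) averaged 6296, 9349.61, 2901 and 4974 in nonconfined WT, nonconfined KO, confined WT and confined KO, with 4 of 5 falling and 1 rising in each genotype (-1.64 and -1.12). Macrophage markers (7 genes, Cd68 leading in these groups) averaged 26699, 32943, 27105 and 33757.5, with 4 falling and 1 rising in each genotype (-0.55 and -0.35). The 8 DC markers averaged 476483, 580973, 427644 and 412119, 6 falling in WT (-0.29) and 8 in KO (-0.54). Sums were low for cDC1 markers (4 genes, Batf3 leading, 670.4 in nonconfined WT, 538 in confined WT and 266 in confined KO), for plasmacytoid DC markers (4 genes, Tcf4 leading, 327, 803 and 283, with Siglech at 0 under LPS with the WT label and Klk1 at 0 with the KO label), for T cell markers (Cd3d leading, 179, 74.4 and 102) and for B cell markers (45.0, 23.7 and 62.1). In nonconfined KO the cDC1 sum was 707 and the plasmacytoid DC sum 277. Under LPS the cDC1 sum was 982 (label WT) and 930 (label KO), and the plasmacytoid DC sum 1884 and 1745.

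For members whose 6 condition means span more than 1 on the log2 scale, the genes moving most alike were sought among 10553 genes, by root mean square difference of centred means. For Irf7, with a span of 4.06, these were the pair written Ifi47 // Olfr56 (0.148) and Herc6 (0.151). Herc6 means were 1530.4 in nonconfined WT, 3825 in confined WT, 599 in confined KO and 11870 in LPS libraries labelled WT. Irf1 (span 2.22) was closest to Slc25a22 (0.0539) and Pttg1 (0.0694), and Irf8 (2.67) to Gpr183 (0.0599) and Blnk (0.0622). Irf9 (1.95) was closest to Gm6548 (0.072) and Psd3 (0.0898), and Irf4 (1.13) to St8sia4 (0.0622) and Gmppb (0.0903). Irf2 (0.65), Irf3 (0.36) and Irf5 (0.65) span too little for this search.

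The 250 bases before the start of each member's canonical transcript in GENCODE were read for 3 short motifs on both strands. They are the interferon-stimulated response element core GAAANNGAA that IRFs bind, the gamma-activated site TTCNNNGAA, and a kappaB-like GGGNNTTTC. Among 21770 promoters of protein-coding genes of the same length they occur in 7.55%, 7.7% and 3.83%. Among members the core occurs in 1 of 8 (Irf2, GAAAATGAA at -221 to -213, plus strand), the gamma-activated site in 3 of 8 and the kappaB-like motif in 0 of 8. Irf1 has TTCCCCGAA at -90 to -82, Irf2 TTCCGAGAA at -204 to -196, and Irf8 TTCTCGGAA at -171 to -163 and TTCAGAGAA at -153 to -145. No match was found for Irf3, Irf4, Irf5, Irf7 and Irf9, which says only that these letters are absent from that window. The same limit holds for the kappaB-like letters in every member, Irf1 among them, because other forms of kappaB site were not searched. A match describes the sequence and no binding was measured. The gene ranges given above are those of the deposited table. Their starts equal the canonical transcript starts for Irf1, Irf5 and Irf9 and differ from them for the other members. Shown from build GRCm39, capitals marking motifs, are Irf1 (chr11:53660591-53660840, plus strand) and Irf8 (chr8:121462847-121463096, plus strand) as members with a match, and Irf7 (chr7:140846399-140846648, minus strand) as the member that changed most and has none.
Irf1: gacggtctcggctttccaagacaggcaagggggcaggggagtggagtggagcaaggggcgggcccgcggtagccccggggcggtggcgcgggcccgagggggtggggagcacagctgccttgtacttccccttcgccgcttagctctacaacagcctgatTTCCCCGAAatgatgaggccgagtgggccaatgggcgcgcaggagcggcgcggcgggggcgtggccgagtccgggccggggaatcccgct
Irf8: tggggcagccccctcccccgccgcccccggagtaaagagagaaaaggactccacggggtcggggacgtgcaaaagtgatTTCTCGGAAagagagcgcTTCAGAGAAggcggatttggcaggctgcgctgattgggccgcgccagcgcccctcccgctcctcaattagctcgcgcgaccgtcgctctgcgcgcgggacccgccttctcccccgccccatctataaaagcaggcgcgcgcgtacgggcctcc
Irf7: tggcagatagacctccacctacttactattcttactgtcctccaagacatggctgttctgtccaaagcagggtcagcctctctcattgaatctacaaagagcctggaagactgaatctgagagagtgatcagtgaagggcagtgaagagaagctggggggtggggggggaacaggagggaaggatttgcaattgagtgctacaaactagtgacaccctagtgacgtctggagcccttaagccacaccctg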

How the data were processed

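RNA of 18 bulk libraries was analysed, 3 for each of 6 conditions. Per the submitters' processing notes, the authors aligned reads to mm39 with STAR 2.7.5a, counted them on Mouse FAST DB genes with featureCounts 1.5.0 and normalized them with DESeq2 in R 3.5.3, and deposited a table whose signal values are normalized counts, that is reads divided by size factors. Of its 62197 genes, 37020 have no symbol. Multiplying each library by its size factor gave whole numbers for 100% of values (largest deviation 7e-10, tolerance 1e-06), and these recovered reads, 33027230 to 61300021 per library (median 40950397), were used only for count models as alternatives.

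A gene was kept when 3 or more libraries held 10 or more normalized counts of it. Log2 values with a pseudocount of 1 were fitted with limma 3.58.1 (trended variance) in R 4.3.3 and adjusted by Benjamini-Hochberg over the 17875 tested genes within each of 11 comparisons. Calls need an adjusted p below 0.05, and the stricter rule also an absolute log2 fold change above 1. Confidence intervals use the same fit. Alternatives were pseudocounts of 0.5 and 5, no filter or a filter of 100, scaling by TMM or to equal totals, the count models of edgeR 4.0.16 and DESeq2 1.42.0 on recovered reads, the compared conditions alone, a replicate block and leaving out each library. For confinement in WT, limma called 10113 genes, edgeR 10102 and DESeq2 10267. The limma fit was tested on simulated data. Figures were drawn with matplotlib 3.10.9.

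Genes named are the 8 members, the genes of 10 lists (1 of them not reported here) and 9 marker lists, up to 2 most alike genes per member (mean of at least 100 normalized counts), and Pla2g4a, Ddx3y, Eif2s3y and Xist as label checks. Members and lists were chosen with earlier results of these data known. Trac was not found in the table, and Ear6 is listed there together with Ear7. Gene coordinates are those of the deposited table. Exon numbers, transcript lengths and transcript starts come from the canonical transcripts of GENCODE vM39, and promoter sequences were read from the GRCm39 genome before those starts. Replicate numbers were checked as pairs: correlations between conditions ran from -0.14 to 0.34, so pairing was not used.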

Additional observations from a re-analysis of the deposited data

Results flagged for a closer look

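For 6 members the change with confinement differs between genotypes by the interaction test in limma, which is why they are listed here. The interaction was -2.60 for Irf7, -1.57 for Irf1, -1.35 for Irf9, -0.89 for Irf8, -0.78 for Irf4 and -0.58 for Irf2 on the log2 scale, each lower in KO. Y-linked transcripts are present only in the KO libraries of this comparison, which also hold Xist. With 3 libraries in each group, single libraries were not tested for standing apart from their group.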

How the results depend on the processing

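Of 1152 member values recomputed under alternatives, 1083 kept their direction and side of the threshold, 37 reversed, 22 were weaker and 10 stronger. Of 1480 counts over gene lists, 1418 stayed within 1.5 times and 62 moved, 15 of them with the same total per library. Irf7, Irf8, Irf9 and Irf1 kept direction and call for confinement and for LPS under every alternative. Leaving out the 2 or the 3 LPS libraries was chosen after seeing the data.

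With the same total per library, members past the threshold went from 8 to 5 for confinement in WT and from 8 to 5 for LPS in libraries labelled WT, 1 of the 5 (Irf3) being lower each time. Of the 17875 tested genes, 10960 and 12478 are called there. Under that scaling the reversed values were, for the interaction, Irf3 0.10; for KO against WT in confined DCs, Irf5 0.08; for KO against WT in nonconfined DCs, Irf2 0; for LPS under the WT label, Irf2 -0.05, Irf3 -0.34 and Irf4 -0.17; for LPS under the KO label, Irf2 -0.06; for LPS with both labels, Irf2 -0.05, Irf3 -0.41 and Irf4 -0.01; for confined against LPS labelled WT, Irf2 0.18 and Irf5 0.03; and for confined WT against LPS of both labels, Irf2 0.19 and Irf5 0.02. The cause was not tested.

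The Irf5 interaction, 0.00 as reported, was -0.03 under TMM scaling, -0.03 in edgeR and -0.01 in DESeq2, and ran from -0.04 to 0.03 when single libraries were left out. Leaving out single libraries gave 1 called member at the lowest for KO against WT in nonconfined DCs, where 2 are reported, and Irf2 there ran from -0.07 to 0.12. Irf3 under the LPS KO label ran from -0.08 to 0.05, and was 0.04 without the 2 libraries and 0.04 without the 3.

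For KO against WT under LPS, leaving out single libraries gave ranges of -0.04 to 0.17 for Irf1, -0.07 to 0.03 for Irf2, -0.06 to 0.06 for Irf3, -0.13 to 0.04 for Irf4, 0 to 0.02 for Irf5, -0.03 to 0.03 for Irf7, -0.04 to 0.01 for Irf8 and -0.05 to 0.03 for Irf9. Without the 2 libraries Irf2 was at 0, Irf5 at 0, Irf7 at 0.01 and Irf8 at 0.02, and without the 3 Irf2 was at 0.09 and Irf9 at 0.10. For confined against LPS labelled WT, Irf4 was at -0.09 without the 3. The cause was not tested.

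The share of called genes that were higher also depends on scaling. With the same total per library it went from 49.8% to 32.6% for confinement in WT, from 39.5% to 70.7% for the interaction, from 47.7% to 69.7% for KO against WT in confined DCs and from 53.8% to 42% in nonconfined DCs. For LPS it went from 53.1% to 25.5% (label WT), from 52.6% to 26.2% (label KO) and from 52% to 26.4% (both), and for confined WT against LPS from 44.2% to 75% (label WT) and from 45.2% to 75% (both). Genes called between the LPS labels numbered 0, against 1 with no filter, 20 without the 2 libraries and 546 without the 3.

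The check for pairing of replicates was not met (correlations from -0.14 to 0.34). With the replicate block 1 call changed, Irf3 for LPS under the WT label (0.17, adjusted p 0.0519), and confinement in WT gave 10002 called genes against 10113.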
